A study of Mus musculus with 4 samples.

Results

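The 39 genes described here encode parts of the machinery that copies DNA and divides the cell. They were chosen by symbol from the 38293 genes of the deposited table, with earlier results of these data known. They fall into 16 S phase genes, 18 mitotic genes and 5 genes of G1 (the D cyclins and the kinases Cdk2 and Cdk4). The S phase genes cover licensing of replication origins, the replication fork, nucleotide synthesis and entry into S phase. All 39 had a row in the table and all 39 passed the filter on low counts. RNA was sequenced from the ventricles of 4 individual mouse embryos of a C57BL/6 background at E12.5 (embryonic days), all from litter 6, after the atria and the valve region had been removed. The 2 knockout embryos, written cKO, carried the genotype Hif1alphaflox/flox/Nkx2.5Cre/+, and the 2 control littermates carried Hif1alphaflox/flox/Nkx2.5+/+. Both groups therefore had the floxed Hif1a alleles, and the cKO embryos alone had Cre recombinase, which the Nkx2-5 locus expresses in heart muscle precursors. Cells outside that lineage keep the floxed gene whole, and no group had the Cre without floxed Hif1a, so effects of the Cre or of its locus cannot be told apart from those of Hif1a loss. Hif1a encodes the HIF-1 subunit whose stability depends on oxygen. The comparison asks whether transcripts of the replication and division machinery differ in the ventricle after its deletion in that lineage.

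Heart muscle cells of the embryo divide while they beat, and the ventricular wall grows at this stage largely through their division. In G1, D cyclins with Cdk4 and E cyclins with Cdk2 phosphorylate the retinoblastoma protein, which frees E2F factors to switch on the genes of DNA replication. The MCM proteins form the ring-shaped helicase that Cdc6 and Cdt1 load at origins. Genes used later, in G2 and mitosis, are switched on by the MuvB complex together with Mybl2 and Foxm1. MuvB binds the promoter element called CHR, often near CCAAT boxes bound by NF-Y. A bulk library shows the sum over all cells of the ventricle, so fewer dividing cells and less of a transcript per dividing cell cannot be told apart.

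The libraries held 8561687 to 19801300 expected counts, with the deepest library in cKO replicate 3. That library was also the only male (Ddx3y at 101 CPM, which is counts per 1000000 of the TMM-scaled library, and Xist at 2.12 CPM, against 1754 to 2097 CPM in the others), so sex and depth were not balanced between groups. Hif1a stood at 716 and 663 CPM in cKO and at 530 and 552 CPM in control, a count over the whole gene that does not check the deletion (log2 fold change 0.35 ± 0.09, SE; edgeR adjusted p = 0.317). Nkx2-5, the Cre locus, stood at 44.3 and 42.1 CPM in cKO and 55.9 and 64.95 CPM in control (-0.49 ± 0.10, adjusted p = 0.153). The 12 heart muscle markers summed to 40644.4 and 39380.6 CPM in cKO replicates 2 and 3 and to 43026.5 and 41022.6 CPM in control replicates 2 and 3, and none was at 0. Over the 13711 genes tested with edgeR's quasi-likelihood test, 20 passed as higher and 50 as lower in cKO at an adjusted p under 0.05. The contrast did hold large differences: Pdk1, a HIF-1 target that restrains entry of pyruvate into mitochondria, fell from 253 and 260 CPM in control to 64.6 and 59.7 CPM in cKO (log2 fold change -2.05 ± 0.09, adjusted p = 2.65e-05).

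The rule for the genes used names only, so their promoters could be read as a separate property. RefSeq windows on GRCm38.p6, each running from 250 bases before to 50 bases after the transcription start, were matched by symbol to 30 of the 39 genes. Those with no window here are Aurkb, Ccna2, Ccnd1, Ccnd2, Ccne2, Foxm1, Gins2, Kif20a and Mcm4. An E2F element was searched as TTTCCCGC, TTTGGCGC, TTTCGCGC or TTTGCCGC on both strands, with overlapping matches counted. It was in 6 of the 13 S phase windows (Cdc6, Cdt1, Mcm3, Mcm5, Mcm6 and Mcm7), in 1 of the 14 mitotic windows (Cdk1) and in 2.95% of the windows of 16518 protein-coding genes. The CHR, searched as TTTGAA on both strands, was in 10 of the 14 mitotic windows, in 1 of the 13 S phase windows (Mcm2) and in 15.5% of all windows. Every one of those 10 mitotic windows also held a CCAAT box, a pair found in 6.30% of all windows; a CCAAT box, with or without CHR, was in 13 of 14 mitotic, 8 of 13 S phase and 38.5% of all windows. The core of the HIF element, searched as ACGTG on both strands, was in 5 of 14 mitotic, 3 of 13 S phase and 2 of 3 G1 windows, and in 21.04% of all windows. Among these, Cdk4 had 8 matches that come from 4 copies of the palindrome CACGTG, the E-box bound by MYC and other factors, each read once on each strand. CACGTG was in 8.09% of all windows. The windows of E2f1 and Mcm7 begin at RefSeq starts 466 and 539 bases from the start of the GENCODE principal transcript, and those of the other members at most 134 bases from it. A match is a description of the letters and says nothing of whether a factor was bound.

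The 7 windows below are shown because they carry these patterns: E2F elements in Mcm6, Mcm5 and Cdc6, CHR and CCAAT in Mki67 and Ccnb2, all 3 elements in Cdk1, and the E-boxes of Cdk4. Each is the 250 bases before the start, 5′ to 3′ on the gene's strand. Matches to E2F, CHR, CCAAT or CACGTG (or their reverse complements) are in capitals. Another CHR of Ccnb2 and another CCAAT of Mcm5 begin 4 and 6 bases after the start, outside the stretches shown.
Mcm6, chr1:128359706-128359955, minus strand: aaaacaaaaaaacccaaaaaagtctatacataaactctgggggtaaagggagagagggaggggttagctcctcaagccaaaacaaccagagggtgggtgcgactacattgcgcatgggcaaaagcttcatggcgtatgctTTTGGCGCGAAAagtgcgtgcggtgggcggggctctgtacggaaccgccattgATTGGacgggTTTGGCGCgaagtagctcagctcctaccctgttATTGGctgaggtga
Mcm5, chr8:75109259-75109508, plus strand: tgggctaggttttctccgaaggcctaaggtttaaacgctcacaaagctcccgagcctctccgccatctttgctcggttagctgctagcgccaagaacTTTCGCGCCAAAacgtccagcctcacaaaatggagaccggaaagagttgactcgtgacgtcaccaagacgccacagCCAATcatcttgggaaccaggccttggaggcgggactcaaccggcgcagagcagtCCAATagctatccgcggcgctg
Cdc6, chr11:98907901-98908150, plus strand: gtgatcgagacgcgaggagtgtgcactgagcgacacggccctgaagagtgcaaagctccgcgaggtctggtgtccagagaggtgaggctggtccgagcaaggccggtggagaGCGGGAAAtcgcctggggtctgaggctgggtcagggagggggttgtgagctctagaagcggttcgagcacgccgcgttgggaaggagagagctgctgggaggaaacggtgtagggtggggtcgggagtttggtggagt
Mki67, chr7:135716380-135716629, minus strand: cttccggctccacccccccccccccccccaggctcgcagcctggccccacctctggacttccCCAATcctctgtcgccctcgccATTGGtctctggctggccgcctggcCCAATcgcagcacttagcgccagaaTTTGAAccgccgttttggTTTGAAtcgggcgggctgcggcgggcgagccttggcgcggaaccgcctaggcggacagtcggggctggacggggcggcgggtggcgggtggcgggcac
Ccnb2, chr9:70421555-70421804, minus strand: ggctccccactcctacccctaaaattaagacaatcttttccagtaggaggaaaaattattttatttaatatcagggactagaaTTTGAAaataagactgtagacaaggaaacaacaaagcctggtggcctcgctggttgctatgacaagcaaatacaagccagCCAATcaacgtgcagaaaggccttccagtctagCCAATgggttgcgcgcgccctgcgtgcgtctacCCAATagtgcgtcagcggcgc
Cdk1, chr10:69352913-69353162, minus strand: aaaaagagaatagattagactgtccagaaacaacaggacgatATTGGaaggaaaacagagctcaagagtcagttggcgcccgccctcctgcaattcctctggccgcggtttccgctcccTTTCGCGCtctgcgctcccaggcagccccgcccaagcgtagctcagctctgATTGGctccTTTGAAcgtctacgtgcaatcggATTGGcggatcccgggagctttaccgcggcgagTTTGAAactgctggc
Cdk4, chr10:127063285-127063534, plus strand: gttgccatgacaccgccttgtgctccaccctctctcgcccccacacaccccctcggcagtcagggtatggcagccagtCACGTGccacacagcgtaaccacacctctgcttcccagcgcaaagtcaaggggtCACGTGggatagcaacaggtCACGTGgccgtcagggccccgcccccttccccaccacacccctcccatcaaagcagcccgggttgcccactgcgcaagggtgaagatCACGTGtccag

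None of the 39 replication and mitosis genes passed the test in either direction, and the measured differences were small. The log2 fold changes, cKO over control, ran from -0.27 for Cdt1 to 0.10 for Cdk4, and 30 of 39 were negative. Negative values made up 50.1% of all genes tested and 52.8% of the 6255 genes at least as abundant as the lowest member. The median of the 39 was -0.064, a change of -4.33%, beside -0.00031 over all genes tested. In edgeR's quasi-likelihood test 0 of 39 passed and 0 had an unadjusted p under 0.05, where 0.511% of all genes tested passed (0.146% as higher and 0.365% as lower) and 6.97% had such a p. DESeq2 and limma-voom also called 0 of 39, with 0 at an unadjusted p under 0.05 in each. Of 13711 genes they called 96 and 73, and 509 and 1005 had such a p. The smallest adjusted p among the members was 0.737, for Cdt1.

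**Figure D1:**
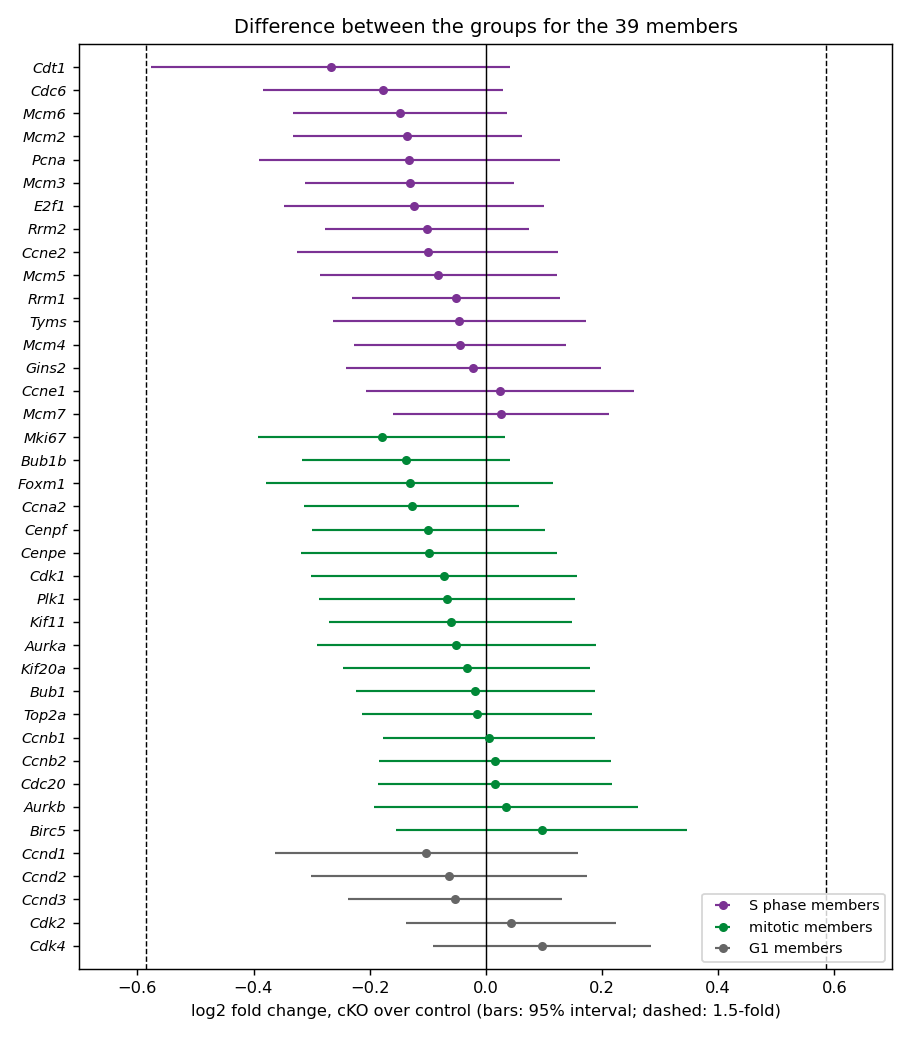
Log2 fold change of each of the 39 genes, cKO over control, with its 95% interval from edgeR's fit as a bar, ordered within the S phase, mitotic and G1 genes; dashed lines mark a 1.5-fold difference either way. All bars cross 0 and all lie between the dashed lines, with the lowest bound at -0.58 (Cdt1) and the highest at 0.35 (Birc5).

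The fit set bounds on these differences. The 95% interval of the log2 fold change, built on the fit's standard error with the spread shared across genes, lay within 1.5-fold either way for 39 of 39 members, against 66.9% of all genes tested and 95.4% of the 6255 genes at least as abundant as the lowest member. It lay within 1.25-fold for 28 of 39, against 30.7% of all genes tested and 59.3% of those abundant genes. Counts per library were between 281 and 11414 for every member. The intervals rest on 2 libraries per group and were not adjusted for the number of genes. With a filter at a mean of at least 5 CPM, 38 members lay within 1.5-fold. The bounds are those of edgeR, and no interval was built with DESeq2 or limma-voom. DESeq2 gave larger standard errors for Cdt1 and Cdc6, 0.18 and 0.17 against 0.13 and 0.090 with edgeR. When 1 library was left out, 38 or 39 members stayed within 1.5-fold.

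Both cKO libraries lay below both controls for 11 of the 39 genes, against 18.8% of all genes tested, and above both for 2 (Cdk2 and Cdk4), against 19.4%. For S phase genes the first count was 7 of 16, for mitotic genes 3 of 18 and for G1 genes 1 of 5. For the other 26 genes the groups overlapped. For 30 of the 39 genes the larger of the differences between replicates of a group exceeded the difference between the groups. The same held for 10125 of the 13711 genes tested.

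**Figure D2:**
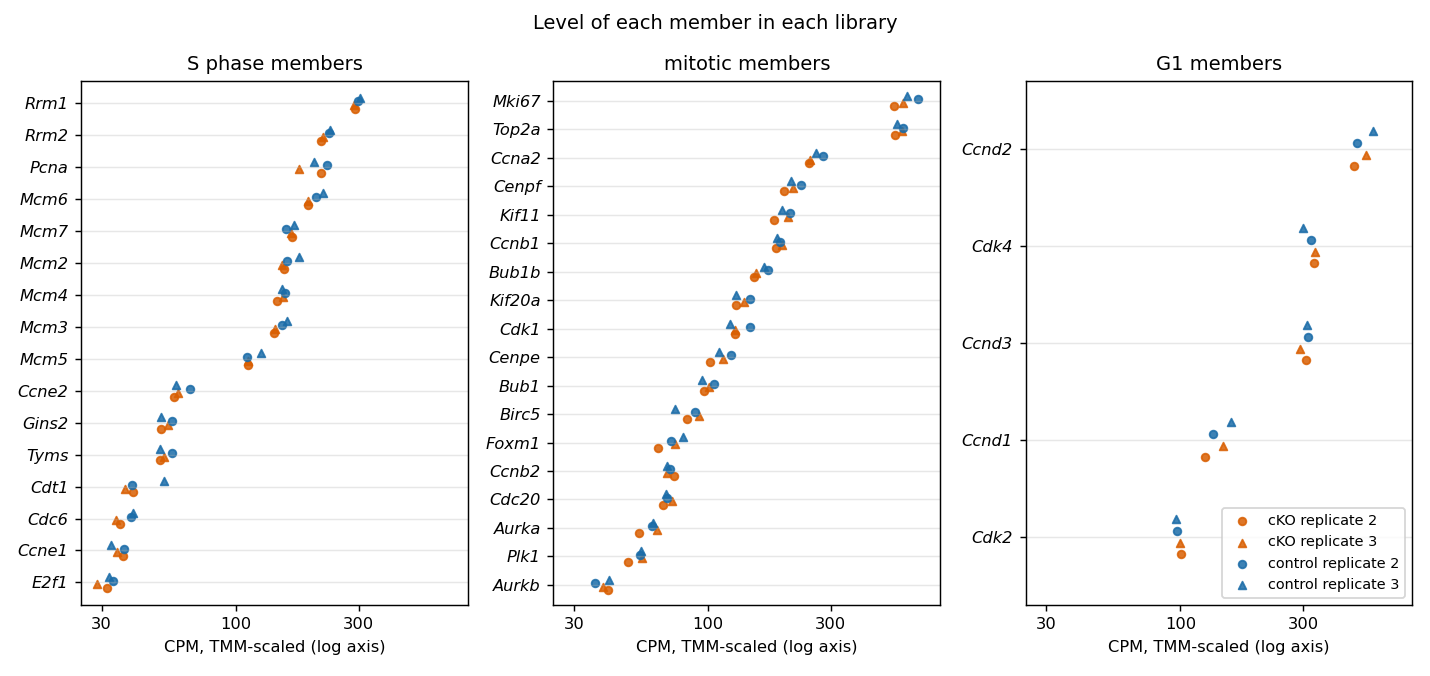
Level of each gene in each library, as TMM-scaled CPM on a log axis, in panels for the S phase, mitotic and G1 genes ordered by mean level; orange marks cKO, blue control, circles replicate 2 and triangles replicate 3. The 4 points of a gene lie close together for nearly every gene, Cdt1 in control replicate 3 at 52.5 CPM and Pcna in cKO replicate 3 at 176 CPM standing apart.

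Among the S phase genes 14 of 16 had negative log2 fold changes, beside 50.1% of all genes tested. None passed, and the S phase median was -0.10 (-6.75%). For cKO replicates 2 and 3 the medians were -0.081 and -0.082, each against the mean of the controls. Both cKO libraries thus stood on the same side by about the same amount. The controls are shared, so any offset in them enters both values, and their likeness is not a repeated observation of a decrease. The controls differed from each other in both directions for these genes, by a median size of 0.12 on the log2 scale, and for 11 of the 16 the larger difference between replicates exceeded that between the groups.

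Among the S phase genes, the helicase loaders Cdt1 and Cdc6 had the lowest log2 fold changes. Cdt1, which loads the helicase and is destroyed once S phase begins, had 39.7 and 37.1 CPM in cKO replicates 2 and 3 and 39.5 and 52.5 CPM in control replicates 2 and 3. Control replicate 3 was high and the other 3 libraries were alike, so the groups overlapped. The log2 fold change was -0.27 ± 0.13 (SE, n = 2 per group; edgeR adjusted p = 0.737), and it went from -0.45 without control replicate 2 to -0.044 without control replicate 3, with no call in either (adjusted p = 0.195 and 0.968).

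Cdc6, the ATPase that acts with Cdt1, had 35.5 and 34.2 CPM in cKO and 38.9 and 39.8 CPM in control. Both cKO libraries were below both controls, with a log2 fold change of -0.18 ± 0.09 that missed the threshold (adjusted p = 0.742). It was -0.085 with cKO replicate 3 thinned at random to the mean depth of the others, and between -0.20 and -0.15 in the other settings tried. Such thinning keeps the expected share of each gene. The value of -0.085 therefore includes the noise of the random draw and does not measure an effect of depth.

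The 6 MCM subunits sit side by side in 1 ring, and 5 of the 6 had negative values with a median of -0.11. Mcm6 had 191 and 191 CPM in cKO and 204 and 219 CPM in control, Mcm2 had 154 and 151 CPM against 159 and 177 CPM, and Mcm3 had 140 and 142 CPM against 151 and 158 CPM. In these 3 genes the groups did not overlap, with log2 fold changes of -0.15, -0.14 and -0.13 (adjusted p from 0.760 to 0.788). Mcm5 had 111 and 111 CPM in cKO and 111 and 125 CPM in control, and Mcm4 had 144 and 152 CPM against 155 and 152 CPM. Mcm7, whose transcript carries a microRNA cluster in an intron, had the 1 positive value of the ring (0.026 ± 0.081), at 166 and 164 CPM in cKO and 156 and 168 CPM in control. Over the ring the cKO libraries differed by a median of -0.0030 and the controls by 0.10, with control replicate 3 above control replicate 2 for 5 of 6 subunits. Without control replicate 2, Mcm2, Mcm6 and Mcm5 had log2 fold changes of -0.21, -0.20 and -0.17. Without control replicate 3 the values of these genes were -0.055, -0.096 and 0.0079.

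Per kilobase of the principal transcript, which allows genes to be compared, the order of the ring was Mcm6, Mcm7, Mcm3, Mcm2, Mcm4 and Mcm5. Mcm6 stood at 69.1 ± 4.60 CPM per kilobase (SD over all 4 libraries) and Mcm5 at 33.9 ± 2.03. Mcm3 at 48.8 ± 2.74 and Mcm2 at 47.5 ± 3.37 did not differ beyond their spread, and Mcm7 at 55.2 ± 1.79 and Mcm4 at 42.0 ± 1.23 stood between their neighbours. Library preparation and read assignment also affect such levels, so the order describes these libraries.

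**Figure D3:**
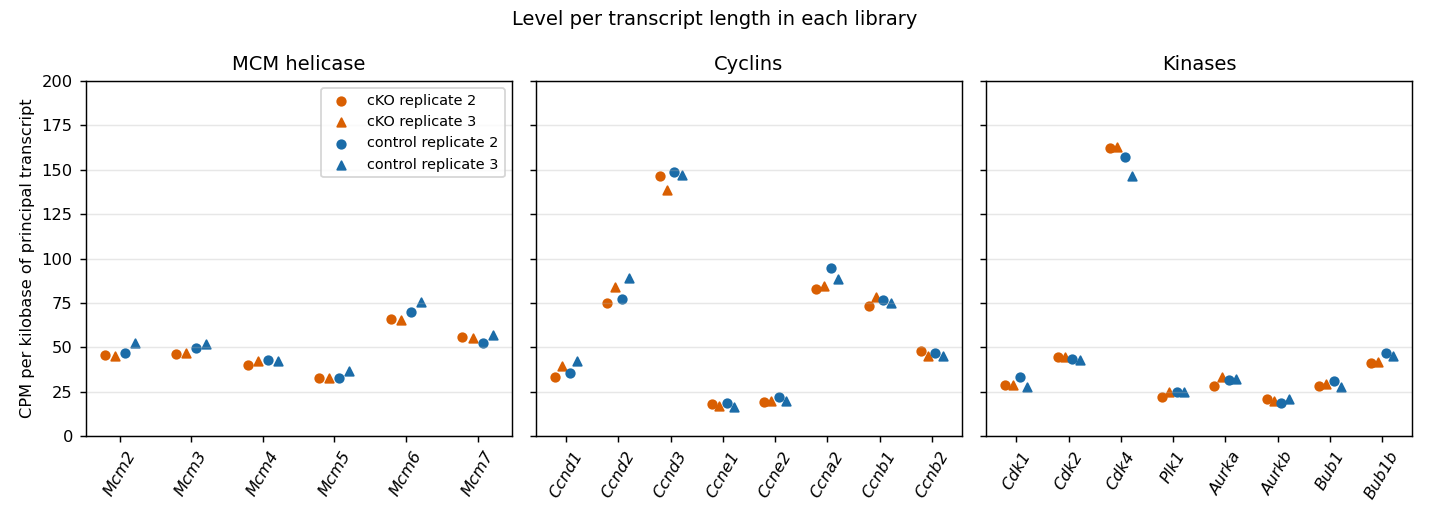
Level per kilobase of the principal transcript in each library (CPM per kilobase) for the MCM helicase subunits, the cyclins and the cell cycle kinases; orange marks cKO, blue control, circles replicate 2 and triangles replicate 3. Ccnd3 stands highest among the cyclins (139 to 149) and Cdk4 among the kinases (147 to 163), and the points of cKO and control lie near each other for every gene.

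Genes of the replication fork and of nucleotide supply follow. Gins2, a subunit of the active helicase, had a log2 fold change of -0.022 ± 0.10. Rrm1 and Rrm2, the subunits of ribonucleotide reductase, which makes deoxynucleotides, had 291 and 288 CPM in cKO against 298 and 302.5 CPM in control, and 214 and 218.5 CPM against 230.5 and 233 CPM. The cKO libraries were below both controls for each gene, by log2 fold changes of -0.051 ± 0.078 and -0.10 ± 0.08. Tyms, which makes thymidylate, had 50.7 and 52.7 CPM in cKO and 56.3 and 50.6 CPM in control. The groups overlapped for Tyms and Gins2.

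Pcna, the sliding clamp of the polymerases, had the largest spread among replicates of cKO. It had 215 and 176 CPM in cKO and 227 and 201 CPM in control, with a log2 fold change of -0.13 ± 0.11 (adjusted p = 0.855). Its near-identical processed pseudogene Pcna-ps2 on chromosome 19 held 648.6 expected counts in cKO replicate 3 and 0, 1.41 and 4.17 in cKO replicate 2 and control replicates 2 and 3. Of the counts of Pcna and Pcna-ps2 together, 15.6% were assigned to the pseudogene in cKO replicate 3 and at most 0.228% in the others. With both summed, the level was 215 and 209 CPM in cKO and 227 and 202 CPM in control, and the log2 fold change was -0.016 ± 0.087 (adjusted p = 0.980). The summed value of cKO replicate 3 lay within the range of the other libraries. Why these counts went to the pseudogene in that library was not tested, so the summed value is an alternative to the value of Pcna itself and not a correction of it. Pcna-ps2 did not pass the filter on low counts and was not tested.

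The pseudogene aligned to coding bases 2 to 782 of the 786 coding bases of Pcna with 6 differences and no gap. Of the 707 windows of 75 bases, the read length, that fit in this alignment, 342 were identical in both, and a read from such a window cannot be told apart by its sequence. The stretch below, coding bases 99 to 188 of Pcna in the GENCODE transcript and bases 98 to 187 of the pseudogene transcript, is shown because it holds 2 of the 6 differences, in capitals.
Pcna: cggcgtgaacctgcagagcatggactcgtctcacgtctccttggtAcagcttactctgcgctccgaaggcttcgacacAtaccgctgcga
Pcna-ps2: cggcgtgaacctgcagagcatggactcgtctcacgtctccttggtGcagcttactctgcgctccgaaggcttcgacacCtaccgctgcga

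**Figure D4:**
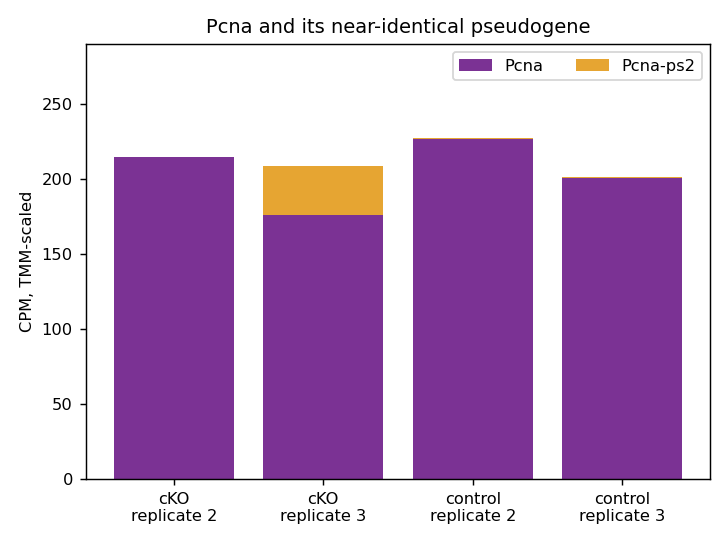
TMM-scaled CPM of Pcna (purple) and its near-identical pseudogene Pcna-ps2 (yellow), stacked, in each of the 4 libraries; there are no error bars because each bar is 1 library. The pseudogene's part is visible in cKO replicate 3 only, where it holds 32.6 CPM, and the stacked heights run from 202 to 227 CPM.

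Of the other members, Ccnb1, Ccnd3, Cdc6, Mcm7, Rrm2 and Tyms also have an annotated pseudogene copy of at least 95% identity over at least 300 bases. The copies with a row in the table held at most 2.25 expected counts in any library, and the others are not analysed here. Expected counts were whole numbers in all 4 libraries for 19 of the 39 members.

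None of the 3 genes that start S phase passed. E2f1, a transcription factor for replication genes, had 31.5 and 28.8 CPM in cKO and 33.2 and 32.2 CPM in control (log2 fold change -0.12 ± 0.10, adjusted p = 0.835), without overlap between the groups. The E cyclins partner Cdk2: Ccne1 had 36.3 and 34.4 CPM in cKO against 36.8 and 32.6 CPM in control, and Ccne2 had 57.2 and 59.4 CPM against 66.4 and 58.7 CPM. Their log2 fold changes were 0.025 ± 0.10 and -0.10 ± 0.10, and the groups overlapped for both.

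Among the mitotic genes 13 of 18 had negative log2 fold changes, beside 50.1% of all genes tested. None passed, and the mitotic median was -0.056 (-3.78%). The cKO libraries stood apart from each other for these genes: against the controls, cKO replicates 2 and 3 had medians of -0.11 and 0.0096, with 15 and 8 of 18 genes negative. The median over all genes tested was 0.0036 and 0.0041 in the same libraries. Leaving out cKO replicate 2 moved the mitotic median to 0.0093, leaving out cKO replicate 3 moved it to -0.11, and leaving out control replicate 2 moved it to -0.013.

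Mki67, the chromosome-coating protein used as a marker of dividing cells, had 529 and 573 CPM in cKO and 653.5 and 595 CPM in control. Both cKO libraries were below both controls, by a log2 fold change of -0.18 ± 0.09 that missed the threshold (adjusted p = 0.746, and 0.678 to 0.9996 over the alternatives). Top2a, which untangles sister chromatids, had 535 and 568 CPM in cKO and 573 and 542 CPM in control, with a log2 fold change of -0.015 ± 0.086. The groups overlapped for Top2a, and its interval ran from 13.7% lower to 13.5% higher.

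None of the cyclins and the kinase that drive entry into mitosis passed, and Ccna2 was the 1 of them whose groups did not overlap. Ccna2 had 246 and 250 CPM in cKO and 280 and 262 CPM in control, without overlap (log2 fold change -0.13 ± 0.08, adjusted p = 0.786). Ccnb1 had 183 and 194.5 CPM against 190 and 186 CPM, and Ccnb2 had 73.6 and 68.9 CPM against 71.3 and 69.5 CPM, with log2 fold changes of 0.0052 ± 0.080 and 0.016 ± 0.087. Cdk1, their kinase partner, had 127 and 127 CPM in cKO and 145 and 121.5 CPM in control. Both cKO values lay between the controls. Foxm1, a transcription factor for mitotic genes, had 63.6 and 74.3 CPM in cKO and 71.5 and 80.1 CPM in control (log2 fold change -0.13 ± 0.11), with cKO replicate 3 above control replicate 2.

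The mitotic kinases Plk1, Aurka and Aurkb had log2 fold changes of -0.066 ± 0.096, -0.051 ± 0.10 and 0.034 ± 0.099. Aurka, which matures spindle poles, was at 53.6 CPM in cKO replicate 2 and between 60.3 and 63.1 CPM in the other 3 libraries. Plk1 had the same pattern, at 49.0 CPM in cKO replicate 2 and between 54.4 and 55.1 CPM elsewhere. Aurkb, the kinase of the chromosomal passenger complex, ran from 36.4 to 41.1 CPM, both in controls. Its partner Birc5 (survivin) had the highest value of the mitotic set, 0.096 ± 0.11, at 82.5 and 91.8 CPM in cKO and 89.1 and 74.4 CPM in control.

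At the kinetochore and checkpoint, Bub1b, which restrains anaphase, had 151 and 154 CPM in cKO and 171 and 164.5 CPM in control, without overlap (log2 fold change -0.14 ± 0.08, adjusted p = 0.765). Bub1 had -0.018 ± 0.089 and Cdc20, the activator of the anaphase-promoting complex, had 0.016 ± 0.088. The kinetochore proteins Cenpe and Cenpf had -0.098 ± 0.096 and -0.099 ± 0.087. The spindle motor Kif11 had 181 and 204 CPM in cKO and 208 and 193 CPM in control (-0.060 ± 0.091), and Kif20a, a motor of cytokinesis, had -0.033 ± 0.092. The groups overlapped for these genes except Bub1b.

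The G1 genes were the 1 class with members higher in both cKO libraries. Cdk4 had 333 and 335 CPM in cKO and 323 and 301 CPM in control, and Cdk2 had 100.2 and 99.3 CPM against 96.9 and 96.6 CPM. Their log2 fold changes were 0.096 ± 0.082 and 0.044 ± 0.079 and did not pass (adjusted p = 0.853 and 0.933). The D cyclins, which link growth signals to Cdk4, were all negative: Ccnd1 at -0.10 ± 0.11, Ccnd2 at -0.064 ± 0.10 and Ccnd3 at -0.053 ± 0.080. Ccnd2 had 476 and 530 CPM in cKO and 487 and 564 CPM in control, so the replicates within each group differed by more than the groups. Ccnd1 had 125 and 147 CPM against 134 and 158 CPM, with the same order of the libraries as Ccnd2.

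Per kilobase, Ccnd3 stood at 145.3 ± 4.43, Ccnd2 at 81.2 ± 6.401 and Ccnd1 at 37.7 ± 3.92 CPM (SD over 4 libraries), and these 3 levels did not overlap. Cdk4 at 157 ± 7.48 CPM per kilobase was the highest of all 39 members, and E2f1 at 11.5 ± 0.686 the lowest. Ccna2 at 87.6 ± 5.17 and Ccnb1 at 75.7 ± 2.02 stood above Ccnb2 at 46.3 ± 1.40 and the E cyclins Ccne2 at 20.1 ± 1.37 and Ccne1 at 17.5 ± 0.947.

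Replicates of a group also differed from each other. For 15 of the 18 mitotic genes cKO replicate 3 was above cKO replicate 2, beside 6 of 16 S phase genes and 49.6% of all genes tested, with a median difference of 0.10 on the log2 scale. The same 18 genes were higher in control replicate 2 than in control replicate 3 for 14, by a median of 0.089. Aurka and Foxm1 had the largest mitotic differences between the cKO libraries, 0.23 and 0.22 on the log2 scale. All 14 erythroid and all 10 cushion mesenchyme markers tested were also higher in cKO replicate 3 than in cKO replicate 2, by medians of 1.22 and 0.95. These differences between embryos of 1 genotype were larger than the median difference between the genotypes. The part of sex and of those cells in this difference was not tested. Thinning cKO replicate 3 at random to the mean depth of the others left the mitotic median, cKO over control, at -0.055. Random thinning keeps the expected share of each gene, so this value cannot show whether depth had a part in the difference between replicates.

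**Figure D5:**
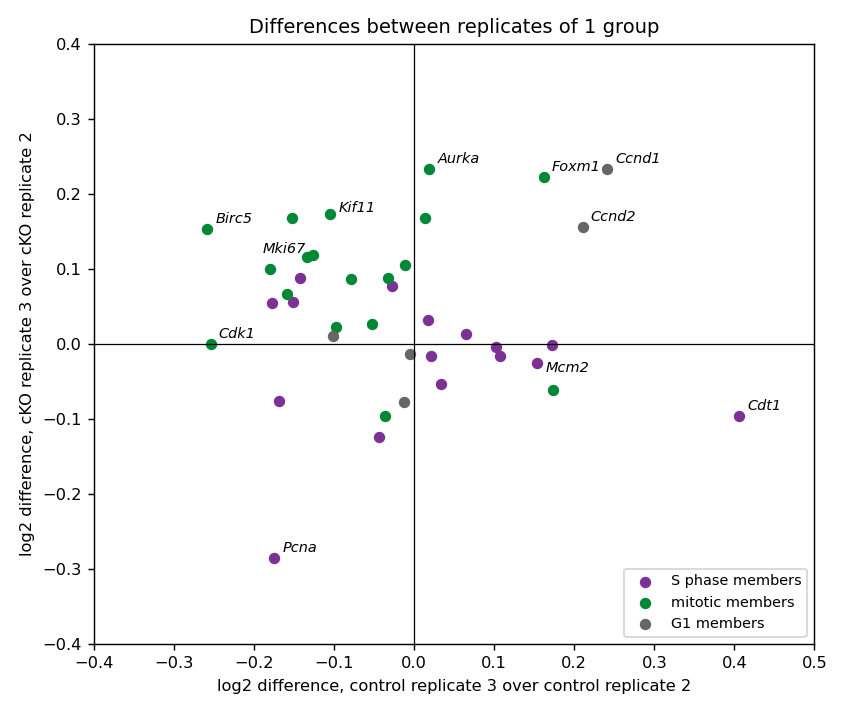
Difference between the replicates of a group on the log2 scale, control replicate 3 over control replicate 2 on the horizontal axis and cKO replicate 3 over cKO replicate 2 on the vertical axis, with 1 point per gene coloured by class. Most mitotic genes lie in the upper left, 15 of 18 above the horizontal line, while Pcna and Cdt1 lie far from the other S phase genes.

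Other genes of the cell cycle were read from lists of textbook members. Of 43 further replication genes (origin recognition, polymerases, clamp loader, ligase and nucleotide pools) 0 passed with edgeR, DESeq2 or limma-voom. With edgeR 0.511% of all genes tested passed. An unadjusted p under 0.05 was found for 4, 1 and 4 respectively, beside 6.97% of all genes tested with edgeR. The median log2 fold change was -0.027. Uhrf1, which carries DNA methylation to the new strand, had 112 and 127 CPM in cKO and 145 and 155 CPM in control (-0.32 ± 0.09, adjusted p = 0.471). Fen1, the nuclease that trims Okazaki fragments, stood at 35.3 ± 0.399 CPM in cKO against 42.7 ± 0.322 CPM (SD) in control (-0.27 ± 0.09, adjusted p = 0.545). In both genes the cKO libraries were below both controls.

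Of 40 further mitotic genes 0 passed with any of these tools, with unadjusted p under 0.05 for 0, 0 and 0 respectively. With edgeR, 0.511% of all genes tested passed and 6.97% had such a p. The median of the 40 was -0.0099. The phosphatase Cdc25b, which activates Cdk1, and Racgap1, a regulator of cytokinesis, had the smallest p, with log2 fold changes of -0.22 ± 0.09 (adjusted p = 0.708) and -0.14 ± 0.08 (adjusted p = 0.759). Of 17 transcription factors of the E2F, RB, MuvB and MYC families 0 passed with any of the tools. An unadjusted p under 0.05 was found for 2, 2 and 2 respectively, beside 6.97% of all genes tested with edgeR. Of the 17, 15 were negative, beside 50.1% of all genes tested, and the median was -0.12. Rb1, the brake on E2F, had 29.9 and 32.2 CPM in cKO and 42.8 and 38.7 CPM in control (-0.39 ± 0.10, adjusted p = 0.343), and Mycn, which the compact wall of the embryonic ventricle uses for growth, had 33.8 and 43.2 CPM against 48.0 and 50.8 CPM (-0.35 ± 0.12, adjusted p = 0.623). Both had an unadjusted p under 0.05 and no overlap between groups.

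Of 8 genes listed as inhibitors of cyclin-dependent kinases or as Cdk6, 6 passed the filter on low counts and 0 passed with any of the tools (0, 0 and 0 respectively at an unadjusted p under 0.05). Over all genes tested with edgeR these shares were 0.511% and 6.97%. Cdkn1a, the inhibitor p21, had 15.9 and 23.1 CPM in cKO and 15.3 and 14.4 CPM in control (log2 fold change 0.42 ± 0.19, adjusted p = 0.708), with cKO replicate 3 apart from the rest and cKO replicate 2 just above the controls. Cdkn2c had -0.15 ± 0.19 (adjusted p = 0.899).

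The summed markers of other cells differed between the libraries. The 14 erythroid genes summed to 2845 CPM in cKO replicate 2 and to 6876 CPM in cKO replicate 3, against 5372 and 6234 CPM in control. The 18 mitotic genes summed to 2906 and 3102 CPM in cKO and to 3275 and 3057 CPM in control. The 10 cushion mesenchyme genes summed to 1037 and 1385 CPM in cKO and 1062 and 1531 CPM in control, the 10 endothelial genes to 1203 and 1111 against 1291 and 1335 CPM, and the 9 epicardial genes to 358.5 and 274.5 against 346 and 388 CPM. The 8 atrial and inflow genes summed to 4710 CPM in cKO replicate 2 and to 2354 to 2975 CPM in the other 3 libraries. The 8 immune genes summed to 97.5 and 69.8 CPM in cKO and 90.05 and 102 CPM in control, and the 8 liver and neural genes summed to between 5.18 and 10.5 CPM. No listed marker was at 0 in all 4 libraries, and of these lists 1 gene, the epicardial keratin Krt19, passed the test, as lower in cKO (adjusted p = 0.0347). The endothelial genes were negative in 10 of 10, with a median log2 fold change of -0.17. Both cKO libraries were below both controls for 6, and with edgeR 5 had an unadjusted p under 0.05. Over all genes tested these shares were 18.8% and 6.97%, and 50.1% were negative. The epicardial genes were negative in 8 of 9 (median -0.39, 4 with such a p) and the erythroid genes in 14 of 14 (median -0.28, 0 with such a p). The erythroid decrease came from cKO replicate 2, whose median against the controls was -0.93. That of cKO replicate 3 was 0.16, with 5 of 14 negative. The remaining lists were mixed in sign. Negative values numbered 4 of 10 for cushion mesenchyme (median 0.27), 4 of 7 for immune and 4 of 6 for atrial genes. They numbered 1 of 3 for liver and neural genes and 7 of 12 for heart muscle markers. The part of these cells in the values of the replication and mitosis genes was not tested.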

How the data were processed

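RNA was measured in 4 libraries, 2 cKO and 2 control, each from the ventricles of 1 embryo. The authors deposited a table of expected counts by gene, whose values are estimates with decimals. The submitters' processing notes name RSEM 1.2.3, cutadapt 1.3, CASAVA 1.8.2 and, as build, GRCm38. Which annotation and settings went with them is not given in the sources used here. Symbols, positions and transcript lengths came from GENCODE mouse release 21 on GRCm38 (36345 identifiers matched), the length being that of the APPRIS principal coding transcript. Promoter windows came from RefSeq.

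Expected counts were rounded, genes were filtered by edgeR's default rule by group (minimum count 10, minimum total 15; 13711 kept), scaled by TMM and compared with edgeR 4.0.16 (glmQLFit and glmQLFTest, R 4.3.3), adjusted by Benjamini-Hochberg over all genes kept at 0.05. Standard errors are the size of the log2 fold change over the root of its F statistic, and the 95% interval uses the fit's total degrees of freedom. Values per library against the controls use log2 of CPM plus 0.5. Pseudogene copies were found with BLAST 2.17.0 (at least 95% identity over 300 bases on the same strand, and at least 50% of the copy's length, a condition added after matches through repeats had been seen). The fit and its intervals were also run on counts simulated from the fit's own means and spreads. Such counts cannot show whether the intervals hold for these embryos. DESeq2 1.42.0, limma 3.58.1 voom and other scalings, filters and leave-outs were alternatives.

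All members get values. From each further cell cycle list the text names the genes past the threshold or, where none passed, those 2 with the smallest p, together with Hif1a and Nkx2-5; Pcna-ps2, Pdk1, Krt19, Xist and Ddx3y were chosen after their values were seen. The members and lists were chosen with earlier results of these data known. Replicate numbers are not tied to any shared source by the labels, and the correlation, across genes, of the deviations of libraries with the same number was 0.095. Chi-square divided by its degrees of freedom was 12.2 between the cKO replicates and 5.54 between the control replicates, above sampling noise.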

Additional observations from a re-analysis of the deposited data

How the results depend on the processing

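No member was called in the main analysis or in any of the 13 alternatives, which were the size factors and the test of DESeq2, upper-quartile scaling, limma-voom, no filter, a mean of at least 5 CPM, the replicate block, thinning of cKO replicate 3, summing with pseudogene copies, and leaving out each library. The smallest adjusted p of a member over these was 0.195 (Cdt1 without control replicate 2). With the replicate number as a block 0 members and 75 genes passed, and the S phase, mitotic and G1 medians were -0.099, -0.059 and -0.053; the block changed no call of a member. The sign of the log2 fold change was the same in the main analysis and all 13 alternatives for 19 of the 39 members, 17 of them negative (10 S phase, 6 mitotic, 1 G1) and 2 positive. Genes called as higher numbered 31 with DESeq2 and 10 with the mean of at least 5 CPM, against 20, and leaving out 1 library gave 15 to 72; genes called as lower numbered 24 to 69 with 1 library left out, against 50. The S phase median of -0.10 was -0.080 with upper-quartile scaling, -0.091 with copies summed, and -0.092 to -0.081 with 1 library left out. With upper-quartile scaling the median over all genes tested was higher too, at 0.020 against -0.00031. With copies summed, the value of Pcna went from -0.13 to -0.016. The mitotic median ranged from -0.11 to 0.0093 and the G1 median from -0.047 to 0.042 with 1 library left out, both changing sign. The cause of these shifts was not tested, except that leave-outs hold fewer libraries and take the spread of the group left with 1 library from the other group. Each group had 2 libraries, which limits the precision, and each member had at least 281 counts per library.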
